A study of Rattus norvegicus with 8 samples.

Results

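The apelin, adrenomedullin and RAMP genes are 2 cardiovascular peptide systems: the ligands apelin (Apln) and adrenomedullin (Adm), the apelin receptor (Aplnr), the calcitonin receptor-like receptor (Calcrl) and the receptor activity modifying proteins Ramp1, Ramp2 and Ramp3. Members were all probe sets annotated to these 7 symbols, which gave 10 probe sets out of 31042 and covered 7 of 14217 genes with a symbol of their own. Their transcripts were compared between the left atrial appendage and the left ventricular free wall of normal rats (male, Sprague-Dawley, weight 225 to 275 g). The side of the heart is stated in the methods of the study and not in the sample labels. Tissue of 13 rats was grouped and divided into 4 atrial and 4 ventricular pools, and 10 μg of total RNA of each pool was hybridized to 1 Affymetrix rat genome array. The sources used here do not tell which animals contributed to a pool, so every SD given here is one between pools and not between rats.

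Apelin and adrenomedullin are secreted peptides that lower vascular tone, act on the heart and are made in larger amounts when oxygen is short. Apelin acts on Aplnr, a G protein coupled receptor of endothelial cells and cardiac myocytes that couples mainly to inhibitory G proteins. Adrenomedullin acts on Calcrl, which reaches the cell surface and gains its ligand preference only with a RAMP partner. With Ramp1 it forms the receptor for calcitonin gene-related peptide (CGRP), and with Ramp2 or Ramp3 it forms the adrenomedullin receptors, which raise cAMP.

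Each value is a log2 signal intensity computed by the authors with Robust Multiple-Array Averaging (RMA), so a difference of 1 is a change of 2 fold. Over the series the values ran from 1.9 to 13.77, with array medians of 4.8 or 4.81. Differences are atrium minus ventricle. They were tested with limma, which draws the variance of each probe set towards that of the rest, and p-values were adjusted over all 31042 probe sets by the Benjamini-Hochberg method. A gene was called at an adjusted p under 0.05 and was represented by 1 probe set, the one with the highest mean over the 8 arrays. A mean under 4 lies near the low end of the intensities. The tissues fitted their labels, since 6 of 6 atrial myocyte markers were higher (median difference 4.2) and 7 of 7 ventricular myocyte markers lower in the atria. Their median of -4.21, set by Irx4, is a bound, since Irx4 was near the low end in the atria (3.52). Ventricular markers were not even among the atrial pools, with means over the 7 markers of 6.8, 5.42, 5.77 and 7.2 in atrial replicates 1 to 4 against 10.49 to 10.53 in the ventricles, so the difference of each member is also given without atrial replicates 1 and 4.

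Of the 7 genes, 2 were higher in the atria (Adm and Ramp1), 4 were lower (Apln, Aplnr, Calcrl and Ramp2) and Ramp3 did not pass the test. Over all genes 45% passed the same test, 22.5% as higher and 22.5% as lower, so a call by itself is common in this comparison. The thresholds of the study were taken as an adjusted p under 0.0001 and at least 1.8 fold. The study set its false discovery rate with Significance Analysis of Microarrays (SAM), while here the cut was put on the limma adjusted p. At these thresholds 5 of the 7 genes passed, 2 higher and 3 lower, against 5.89% of all genes (3.37% higher and 2.53% lower). With the SAM statistic the same 5 genes passed (6.78% of all genes). Of these, Aplnr and Ramp1 passed under each of the 17 alternatives run, but Apln, Adm and Calcrl did not. The count fell to 2 without atrial replicate 2 or without ventricular replicate 1, to 3 without atrial replicate 1 or 3 or ventricular replicate 2, 3 or 4, to 3 with the replicate number as a block and to 3 without atrial replicates 1 and 4 together (4.3% to 5.74% of all genes). In 6 of the 7 genes all 4 atrial pools lay to one side of all 4 ventricular pools, which 44.1% of all genes did. Of the 10 probe sets, 9 passed (2 higher and 7 lower) where 38.8% of all probe sets did (18.6% higher and 20.1% lower). They showed no overlap in 9 cases (37% of all probe sets), and 7 met the study thresholds, 2 of them higher and 5 lower, where 4.51% of all probe sets did (2.64% higher and 1.87% lower). That number was 4 without atrial replicate 2 (3.64% of all probe sets), without ventricular replicate 1 (3.67%) or with the block (3.13%). Within each of the 3 genes with more than 1 probe set, both probe sets changed in the same direction. Their differences were -1 and -1.14 for Apln (exact permutation p of the within-array gap = 0.0571), -1.54 and -1.74 for Aplnr (exact p = 0.2) and -0.86 and -0.59 for Calcrl (exact p = 0.0286). After adjustment over the 3 genes none of these gaps passed (adjusted p from 0.0857 to 0.2). The Calcrl p is the smallest that the 70 splits of the arrays allow, and standing alone it could not pass that adjustment. The test thus cannot show that the 2 Calcrl probe sets changed equally.

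**Figure D1:**
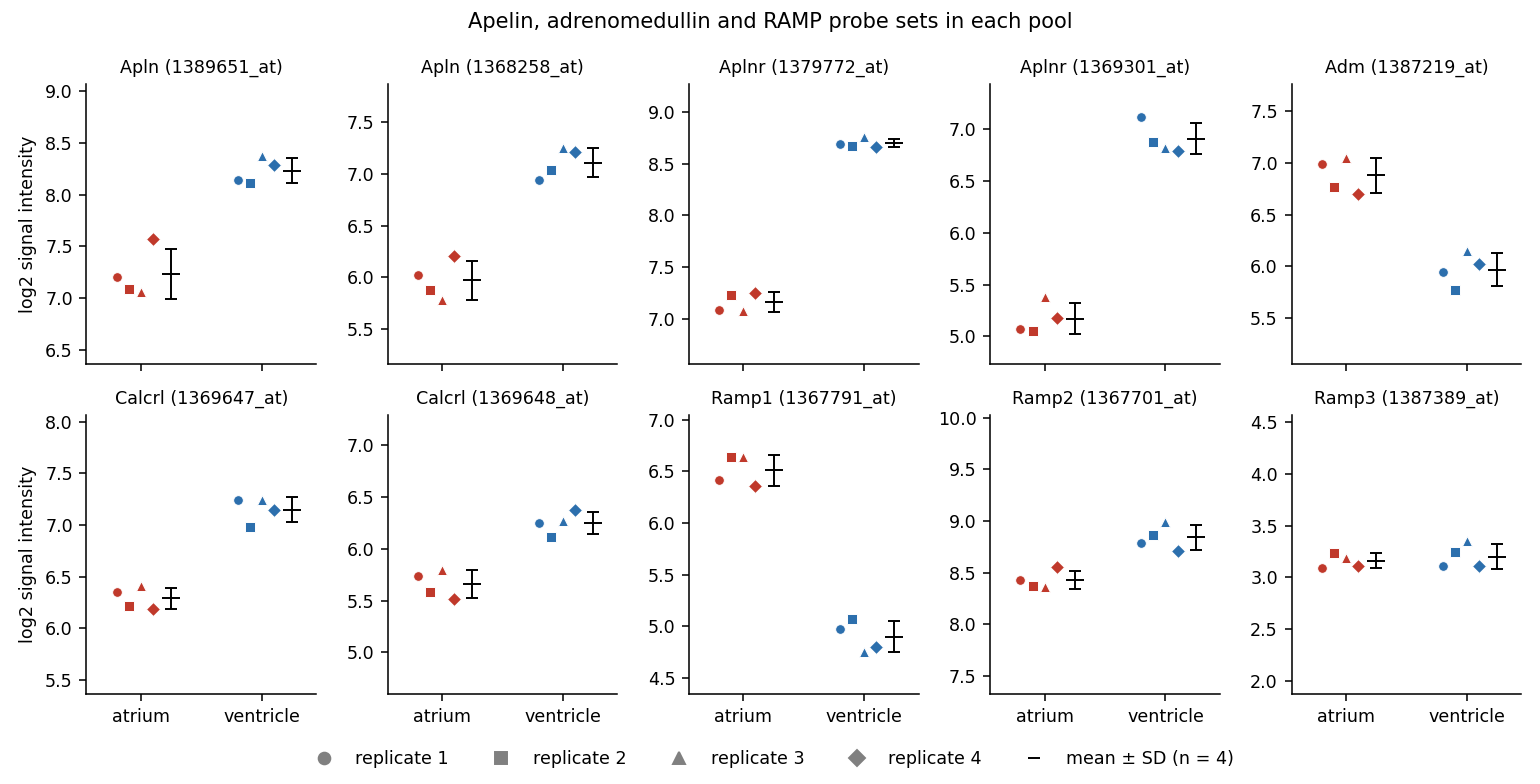
Log2 signal intensity of the 10 probe sets in each atrial (red) and ventricular (blue) pool, with the mean and SD of 4 pools in black. Every vertical axis spans the same range of log2 units at its own level. The tissues do not overlap in 9 of the 10 panels, and only Ramp3, near 3.2 in both tissues, shows overlap.

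The upstream sequences of adrenomedullin and its receptor are shown because ligand and receptor went in opposite directions between the tissues. They are the 250 bases before the 1 transcript start that the RefSeq promoter table (build GRCr8) gives for the gene, written 5′ to 3′ on its strand. Positions below count from that start, which need not be the one farthest upstream. The capitals in the Adm sequence mark the letters TATAA, the core of the TATA box.
Adm, chr1:174179950-174180199, + strand: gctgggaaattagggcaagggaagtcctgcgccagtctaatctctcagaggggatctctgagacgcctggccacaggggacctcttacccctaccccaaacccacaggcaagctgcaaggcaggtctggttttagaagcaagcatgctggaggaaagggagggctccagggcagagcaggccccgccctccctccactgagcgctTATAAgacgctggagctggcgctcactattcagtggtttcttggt
Calcrl, chr3:89932617-89932866, - strand: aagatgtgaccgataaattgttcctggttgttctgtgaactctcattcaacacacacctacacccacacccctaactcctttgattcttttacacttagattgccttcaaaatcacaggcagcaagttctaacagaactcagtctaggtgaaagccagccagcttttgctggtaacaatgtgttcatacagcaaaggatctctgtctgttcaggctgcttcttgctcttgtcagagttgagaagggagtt
The Adm window is 58.8% G and C and the Calcrl window 43.6%, with a median of 51.2% over 33469 promoters of the same length. TATAA on the strand of the gene stands once in Adm, its first base 45 bases before the start, and not in Calcrl, Apln, Ramp1 or Ramp3, and 16.7% of all windows hold it. The cores of the hypoxia response element, ACGTG and GCGTG, were searched on both strands and were in 36.7% of all windows. Both strands of a CACGTG were counted as 1 match each. These cores were not found in the windows of Adm, Apln or Calcrl, and GCGTG occurred once each in Ramp1 (70% G and C) and Ramp3 (61.6%), 73 and 66 bases before the start. A match is only a run of letters, and a window without one says nothing of the factor. Longer annotated transcripts start farther upstream in 3 of these genes, so the windows of Adm and Apln lie wholly, and that of Ramp1 partly, within the span of the gene and are not upstream of every transcript. The table gave a window for 5 of the 7 genes and none for Aplnr or Ramp2.

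Apelin transcripts were 2 fold lower in the atria. Its brighter probe set (1389651_at) read 7.2, 7.09, 7.06 and 7.57 in atrial replicates 1 to 4 and 8.14, 8.11, 8.37 and 8.29 in ventricular replicates 1 to 4. Every atrial pool was below every ventricular pool, and atrial replicate 4 was the highest of its group. The means were 7.23 ± 0.24 (SD, n = 4 pools) and 8.23 ± 0.12 (SD, n = 4), and they differed by -1 (standard error 0.11, adjusted p = 5.4e-05 from limma).

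The dimmer apelin probe set (1368258_at) went the same way. It read 6.02, 5.88, 5.78 and 6.21 in the atria and 6.94, 7.04, 7.25 and 7.21 in the ventricular pools, which gave -1.14 (adjusted p = 9.7e-06 from limma). Here too atrial replicate 4 was the highest atrial value. That pool had the highest mean of the ventricular markers (7.2) and of the adipocyte markers (7.73) among the atrial pools. The part of either in the apelin values was not tested. Without atrial replicates 1 and 4 the differences of the probe sets were -1.16 and -1.28.

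The apelin receptor gene Aplnr had the largest decrease of the 7 genes and was 2.9 fold more abundant in the ventricles. Its brighter probe set (1379772_at) read 7.08, 7.23, 7.07 and 7.25 in the atria and 8.69, 8.67, 8.76 and 8.66 in the ventricles. The gap between the highest atrial and the lowest ventricular pool, 1.41, was many times the SDs of 0.1 and 0.04 within the tissues. The difference was -1.54 (standard error 0.07, 95% interval -1.68 to -1.39, adjusted p = 4.6e-08 from limma), and 0.605% of all genes were lower in the atria by as much.

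The dimmer Aplnr probe set (1369301_at) read 5.07, 5.05, 5.38 and 5.18 in the atria and 7.12, 6.88, 6.82 and 6.79 in the ventricles. It differed by -1.74 (standard error 0.1, adjusted p = 2.9e-07 from limma). Ligand and receptor of the apelin system were thus both lower in the atria, on all 4 probe sets that read them. Without atrial replicates 1 and 4 the Aplnr probe sets differed by -1.54 and -1.69. In bulk tissue fewer cells of a type and less RNA per cell cannot be told apart.

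Adrenomedullin went in the other direction and was 1.87 fold more abundant in the atria. Its only probe set (1387219_at) read 6.99, 6.77, 7.05 and 6.7 in the atria and 5.95, 5.77, 6.15 and 6.02 in the ventricles, with no overlap. The means were 6.88 ± 0.17 (SD, n = 4) and 5.97 ± 0.16 (SD, n = 4), and they differed by 0.9 (standard error 0.1, adjusted p = 4.7e-05 from limma). The difference was 0.93 without atrial replicates 1 and 4.

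The receptor Calcrl was 1.82 fold more abundant in the ventricles. The brighter probe set (1369647_at) read 6.35, 6.22, 6.41 and 6.19 in the atria and 7.24, 6.98, 7.24 and 7.15 in the ventricular pools, or -0.86 between the means (standard error 0.08, adjusted p = 1.3e-05 from limma). The dimmer probe set (1369648_at) read 5.74, 5.58, 5.8 and 5.51 against 6.25, 6.11, 6.27 and 6.38 and differed by -0.59 (standard error 0.08, adjusted p = 2.7e-04). Both were without overlap, but the dimmer one, at 1.51 fold, fell short of the 1.8 fold of the study, and the brighter one passed it by a small margin. Without atrial replicates 1 and 4 they differed by -0.84 and -0.56.

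**Figure D2:**
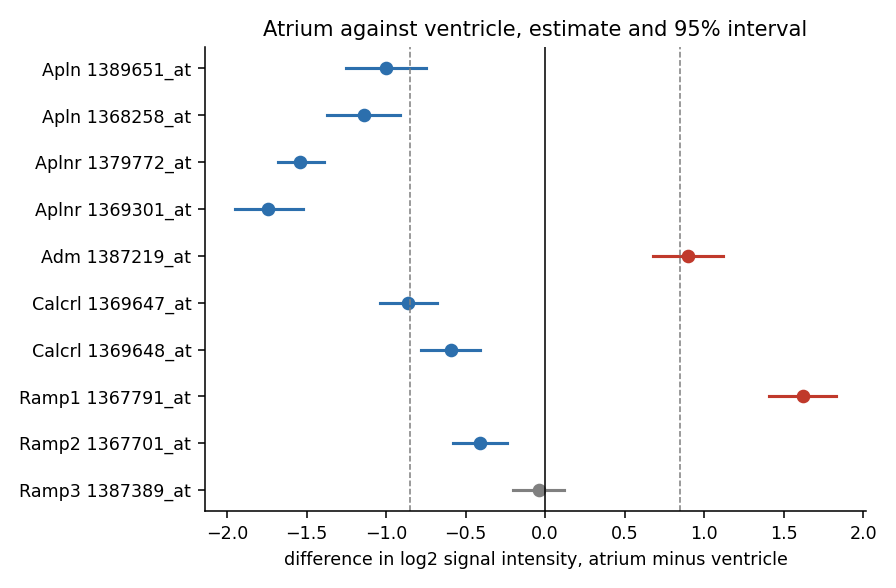
Difference in log2 signal intensity, atrium minus ventricle, of the 10 probe sets (points) with 95% intervals from limma (lines), red for called higher, blue for called lower and grey for not passed. Dashed lines mark 1.8 fold (0.848). Ramp1 lies farthest to the right at 1.62 and Aplnr farthest to the left at -1.74.

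Ramp1, the partner that makes Calcrl a CGRP receptor, was 3.07 fold more abundant in the atria. Its probe set (1367791_at) read 6.42, 6.64, 6.64 and 6.36 in the atria and 4.97, 5.07, 4.75 and 4.8 in the ventricles. The atrial pools were all above 6 and the ventricular pools all near 5, with a gap of 1.29 between the tissues. The difference was 1.62 (standard error 0.09, 95% interval 1.41 to 1.83, adjusted p = 4.2e-07 from limma), and 1.35% of all genes were higher in the atria by as much. Atrial replicates 1 and 4 were the lower atrial pools, and without them the difference was 1.74.

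Ramp2, the partner for adrenomedullin in blood vessels, was 1.33 fold more abundant in the ventricles, a small difference. Its probe set (1367701_at) read 8.43, 8.37, 8.36 and 8.55 in the atria and 8.79, 8.86, 8.99 and 8.71 in the ventricles. The pools did not overlap, but the gap was only 0.16, little more than the SDs of 0.09 and 0.12. The difference was -0.41 (standard error 0.08, 95% interval -0.58 to -0.24, adjusted p = 0.0016 from limma), and -0.47 without atrial replicates 1 and 4.

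Ramp3, the other adrenomedullin partner, was near the low end of the intensities in both tissues. Its probe set (1387389_at) read 3.09, 3.23, 3.19 and 3.11 in the atria and 3.11, 3.24, 3.35 and 3.11 in the ventricles. The tissues overlapped, and the difference of -0.04 (95% interval -0.2 to 0.12, adjusted p = 0.66 from limma) did not pass. Its sign turned to 0.01 without atrial replicates 1 and 4 and to 0.04 with cyclic loess or quantile normalization. At such a signal a change in the transcript could be compressed, so the interval covers the signal and not the amount of transcript.

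The next comparison asked whether members changed unequally between the tissues. For 8 pairs of genes the log2 values were subtracted within each array, and the atrial and ventricular differences were compared with a two-sided exact permutation test over the 70 splits of the 8 arrays, adjusted over the 8 pairs. Only the change of such a difference can be read, since different probe sets do not share a scale of level. Changes can depend on the probe set too. Between the brighter and the dimmer probe set of 1 gene they differed by 0.14 (Apln), 0.2 (Aplnr) and -0.27 (Calcrl). The part of such probe set effects in the smaller shifts between genes was not tested. In each of the 8 pairs the 4 atrial arrays lay to one side of the 4 ventricular arrays, so each had the smallest p that the design allows (exact p = 0.0286, adjusted p = 0.0286). For Ramp1 against Calcrl, Ramp1 against Ramp2 and Adm against Calcrl this p adds nothing, because genes that each separate the tissues in opposite directions must also separate them in their difference. Nor does it add anything for Ramp1 against Ramp3 and Ramp3 against Calcrl, since Ramp3 ranged only from 3.09 to 3.35. That spread is smaller than the gap between the tissues of Ramp1 (1.29) and of Calcrl (0.57). The shifts of all these pairs are given as sizes only.

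The largest shift was that of Ramp1 against Calcrl. Their within-array difference was 0.06, 0.41, 0.24 and 0.17 in the atria and -2.27, -1.91, -2.5 and -2.35 in the ventricles. The atria were thus shifted towards Ramp1 by 2.48 (standard error 0.14), or 5.57 fold, made up of a rise of 1.62 in Ramp1 and a difference of -0.86 in Calcrl. Against Ramp2 the shift towards Ramp1 was 2.03 (standard error 0.15), or 4.07 fold, and against Ramp3, near the low end, it was 1.66. Ramp2 itself was lower by less than Calcrl, so their difference shifted by 0.45 (standard error 0.12, with atrial arrays from 1.96 to 2.37 and ventricular arrays from 1.55 to 1.88). With the mean of the probe sets of Calcrl that shift was 0.32 and no longer passed (exact permutation test, adjusted p = 0.0571).

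Adrenomedullin against Calcrl gave the tightest arrays of the 8 pairs in the atria. The within-array difference was 0.63, 0.55, 0.64 and 0.52 in the atria and -1.28, -1.2, -1.09 and -1.13 in the ventricles, a shift of 1.76 (standard error 0.05), or 3.39 fold, towards the ligand. The SDs of 0.06 and 0.08 were below those of Adm alone (0.17 and 0.16) and of Calcrl alone (0.1 and 0.12). Apelin against its receptor read 0.12, -0.15, -0.02 and 0.32 in the atria and -0.54, -0.56, -0.38 and -0.37 in the ventricles. The shift of 0.54 (standard error 0.11), or 1.45 fold, came from a receptor that was lower by more than its ligand. The shifts of Ramp3 against Calcrl (0.82), Ramp2 against Ramp3 (-0.36) and Ramp1 against Ramp3 rest on a Ramp3 signal near the low end.

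**Figure D3:**
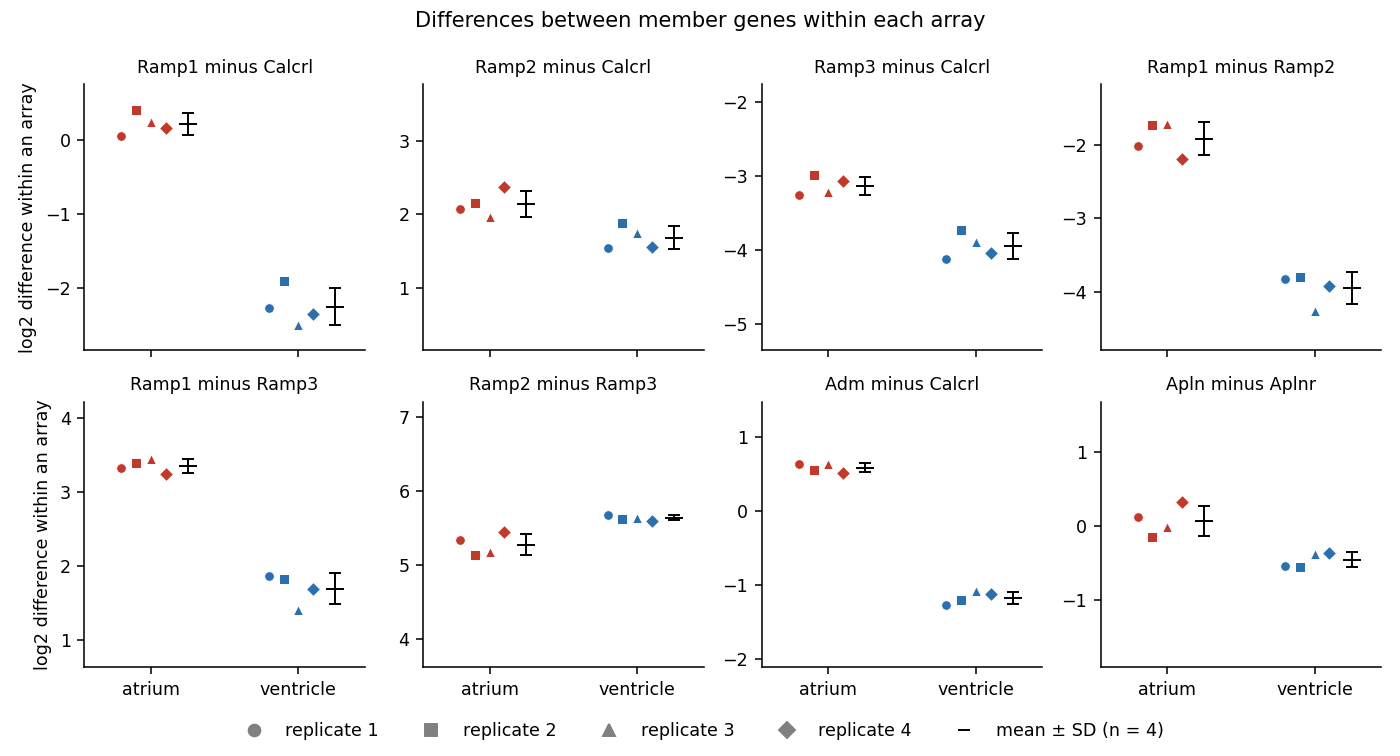
Difference in log2 signal intensity between members within each array, for 8 pairs, in atrial (red) and ventricular (blue) pools, with the mean and SD of 4 arrays in black. Every vertical axis spans the same range of log2 units. The largest shift between tissues is that of Ramp1 minus Calcrl (2.48) and the smallest in size that of Ramp2 minus Ramp3 (-0.36).

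Other genes of the apelin and adrenomedullin pathways were examined as a list of 61 genes, of which 52 were measured. Called were 10 as higher and 21 as lower, and the other 21 were not called, with a median difference of -0.16 beside -0.04 over all genes. Over all genes 45% were called, 22.5% as higher and 22.5% as lower. Counts of the smaller lists that follow are to be read beside these shares. By size the differences were mostly modest, and 2 of the 52 (Pam and Prkce) passed the thresholds of the study. Of 6 related ligands and receptors 2 were higher and 1 was lower, with a median of -0.03. The CGRP gene Calca, with mean signals of 3.25 (atria) and 3.46 (ventricles), was near the low end and differed by -0.2 (adjusted p = 0.025 from limma). That call was lost under 9 alternatives, among them cyclic loess (adjusted p = 0.12) and the omission of atrial replicate 1 or 2 or ventricular replicate 1, 2 or 3 (0.053 to 0.067). Calcb (3.09 and 3.07), amylin (Iapp, 3.42 and 3.49) and the calcitonin receptor Calcr (2.69 and 2.9) were also near the low end and did not pass, though Calcr did without atrial replicate 4 (-0.29, adjusted p = 0.014 from limma). The CGRP receptor component Crcp was higher in the atria by 0.23 (adjusted p = 0.033), a call lost under 10 alternatives. They included cyclic loess (0.096), quantile normalization (0.15) and the omission of atrial replicate 1, 2 or 4 or ventricular replicate 1, 3 or 4 (adjusted p from 0.054 to 0.089). Ackr3, a scavenger receptor that also binds adrenomedullin, was higher by 0.44 (adjusted p = 8.6e-04).

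Among genes of peptide processing and clearance, 3 of 5 were higher in the atria and 0 were lower, with a median of 0.43. The amidating enzyme Pam, which finishes the carboxyl end of adrenomedullin, read 12.63, 12.67, 12.75 and 12.54 in the atria and 11.46, 11.41, 11.44 and 11.39 in the ventricles. The atrial pools were all higher, by 2.34 fold (difference 1.22, adjusted p = 1.8e-07 from limma), and the mean of its probe sets gave 0.66, still in the same direction. The endothelin converting enzyme Ece1, which cleaves several peptides, was higher by 0.43 and carboxypeptidase E (Cpe), which trims peptide hormones, by 0.22. The Cpe call was lost without any one of atrial replicates 2 and 3 and ventricular replicates 1, 2 and 3, where its adjusted p rose to between 0.051 and 0.076.

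Among G proteins, kinases and arrestins of the receptors, 1 of 10 was higher and 3 were lower, with a median of -0.14. Over all genes 45% were called, so this count does not set the list apart. The inhibitory subunit Gnai2 differed by -0.34, Gna12 by -0.4 and Gnaq by -0.19, and the arrestin Arrb1 by 0.37. The Gnaq call was lost under 11 alternatives, cyclic loess among them (adjusted p = 0.2) and the omission of any 1 array other than atrial replicate 3 and ventricular replicate 4 (0.052 to 0.088). With the mean of its probe sets Arrb1 differed by 0.12 and lost its call (adjusted p = 0.098).

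In the cAMP arm 2 of 19 genes were higher and 9 lower (22.5% each way over all genes), with a median of -0.2. Rapgef3, which carries the cAMP signal to the small G protein Rap, had the largest decrease, with 4.68 in the atria and 5.62 in the ventricles (difference -0.95, adjusted p = 9.9e-04 from limma). The catalytic subunit of protein kinase A, Prkaca, differed by -0.56, the phosphodiesterase Pde4d by -0.49 and the adenylyl cyclase Adcy9, near the low end in both tissues, by -0.45. Higher in the atria were the phosphodiesterase Pde3b, by 1.01, and the cyclase Adcy5, by 0.44. The Pde3b difference ran from 0.76 to 1.17 with 1 array left out, and atrial replicate 4 (5.55) was its highest pool. The ventricular mean of Pde3b, 3.8, is near the low end, so its difference could be compressed. With the mean of its probe sets Adcy5 differed by 0.16 and was no longer called (adjusted p = 0.05 from limma).

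In the nitric oxide and cGMP arm 1 of 5 genes was higher and 4 were lower, with a median of -0.31. Endothelial nitric oxide synthase (Nos3), which apelin and adrenomedullin activate in vessels, had mean signals of 6.06 (atria) and 6.96 (ventricles, difference -0.91, adjusted p = 1.2e-04 from limma). Akt1, a kinase that activates it, differed by -0.41. The subunits of the nitric oxide receptor went in opposite directions, with Gucy1a1 at 0.51 and Gucy1b1 at -0.31, and the cGMP phosphodiesterase Pde5a differed by -0.3. The calls of Gucy1b1 and Pde5a were lost without atrial replicates 1 and 4 (adjusted p = 0.06 and 0.061 from limma). That of Pde5a was also lost with cyclic loess (-0.21, adjusted p = 0.051 from limma). Of 7 calcium and contractile effectors 1 was higher, the sodium calcium exchanger Slc8a1 (0.25), and 4 were lower, with a median of -0.43. They were Prkce, a protein kinase C of cardiac myocytes (-1.07, adjusted p = 2.3e-06), myosin light chain kinase Mylk (-0.47) and the phospholipases Plcb1 (-0.44) and Plcb3 (-0.43). The Mylk call (adjusted p = 0.035) was lost under 9 alternatives, among them the omission of any 1 array other than atrial replicate 4 (adjusted p from 0.057 to 0.096).

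Adm and Apln are both known hypoxia-inducible genes, and 26 of 27 other such genes were measured. Higher were 3, lower 14, and 9 were not called, with a median difference of -0.23. Over all genes 22.5% were higher and 22.5% lower, with a median of -0.04. The oxygen sensor Egln3 differed by -1.38, the kinase Pdk1, which restrains pyruvate oxidation, by -1.35, the glucose transporter Slc2a1 by -1.25 and the vascular growth factor Vegfa by -1.14. Hexokinase Hk2 (0.57) and the collagen hydroxylases P4ha1 (0.38) and P4ha2 (0.32) were higher in the atria. The 2 members thus lay on opposite sides, Apln (-1) with the 14 genes called lower and Adm (0.9) with the 3 called higher. The difference of Adm was larger than that of any of the 26 genes in that direction.

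**Figure D4:**
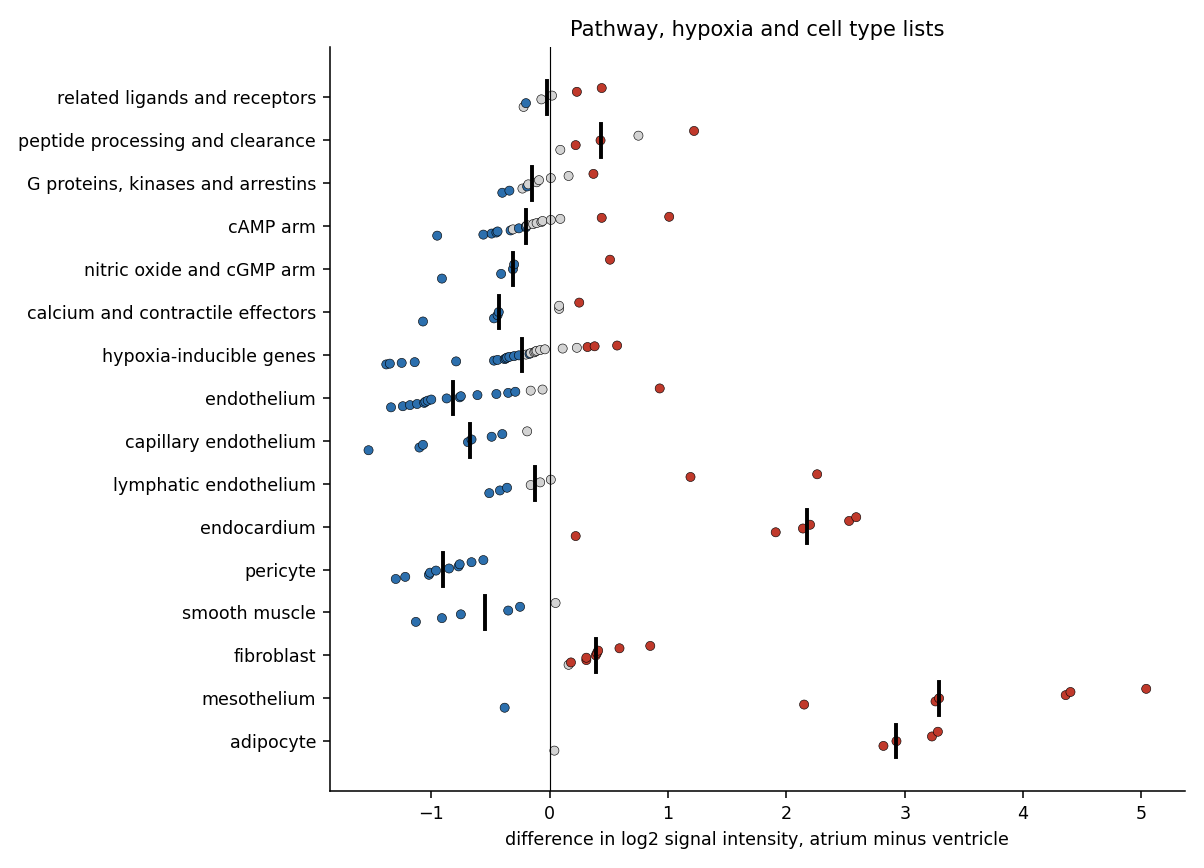
Difference in log2 signal intensity, atrium minus ventricle, of each measured gene (point) of the pathway, hypoxia and cell type lists named on the axis, red for called higher, blue for called lower and grey for not passed. Black bars are list medians, which run from -0.91 for pericyte markers to 3.29 for mesothelium markers, and points are spread vertically for legibility.

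Markers of endothelial and mural cells were lower in the atria, as were Apln, Aplnr, Calcrl and Ramp2. Endothelial markers, of the cells in which Aplnr, Calcrl and Ramp2 are prominent, were lower in the atria in 15 of 18 measured genes and higher in 1, with a median difference of -0.81. Their mean level was 7.7 to 7.74 in the atrial pools and 8.35 to 8.44 in the ventricular pools, and none was near the low end. The largest decreases were those of the growth factor receptor Kdr (-1.34) and the transcription factor Sox18 (-1.24), while Vwf was higher (0.93). Capillary endothelial markers were lower in 7 of 8, with a median of -0.67 and the low end reached only by Rgcc, and were led by Btnl9 (-1.53) and Car4 (-1.1). The differences of Calcrl (-0.86) and Apln (-1) lie within the range of the endothelial markers, that of Ramp2 (-0.41) is smaller than their median and that of Aplnr (-1.54) larger than any of the 18. Pericyte markers were lower in 10 of 10, with a median of -0.91 and a mean level of 6.27 to 6.37 against 7.19 to 7.25. Smooth muscle markers were lower in 5 of 6, with a median of -0.55, a mean level of 5.95 to 6.16 against 6.49 to 6.68 and Cnn1 and Lmod1 near the low end. Ventricular myocyte markers were also lower, in 7 of 7, with a median of -4.21 that is a bound. The part of any of these cells, myocytes included, in the lower members was not tested.

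Markers of other cell types were higher in the atria, as were Adm and Ramp1. Endocardial markers were higher in 6 of 6, with a median of 2.17, a mean level of 7.06 to 7.29 against 5.13 to 5.3 and Hapln1 near the low end. Mesothelial markers were higher in 6 of 7, with a median of 3.29 and a mean level of 6.9 to 7.86 against 4.05 to 4.33, led by Upk1b (at least 5.04) and Msln (4.4), with Wt1 lower (-0.38). Fibroblast markers were higher in 8 of 9, with a median of 0.39 and a mean level of 10.28 to 10.45 against 9.89 to 10.06. Adipocyte markers were higher in 4 of 5, with a median of at least 2.93, as Plin1 at the median was near the low end in the ventricles (3.58), and Lep near the low end in both tissues, and their mean level varied widely among the atrial pools, at 4.42, 6.23, 5.48 and 7.73 in replicates 1 to 4, against 3.41 to 3.66 in the ventricles. Atrial myocyte markers were also higher, in 6 of 6, with a median of 4.2. The part of endocardial, mesothelial, fibroblast and fat cells and of atrial myocytes in the higher members was not tested.

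Remaining lists were mixed. Lymphatic endothelial markers were higher in 2 of 8 (Pdpn by 2.26 and Lyve1 by 1.19, both also made by other cells) and lower in 3, with a median of -0.12, Nts near the low end and a mean level of 6.18 to 6.36 in the atria and 5.92 to 6.11 in the ventricles. Leukocyte markers were higher in 2 and lower in 2 of 6 (median -0.03), nerve and Schwann cell markers higher in 2 and lower in 1 of 5 (median 0.06), and general cardiac myocyte markers higher in 1 and lower in 2 of 4 (median -0.09).

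The genes whose pattern over the 8 arrays was most like that of each member were ranked by Pearson r among all other genes, as a description, since all 8 points share the difference between the tissues. For Aplnr they were the ventricular homeobox gene Irx3 (r = 0.999), Tpm1 and Ndufs7, and for Ramp1 they were Arhgap24, the T-type calcium channel Cacna1g and Igsf1 (each r = 0.998). Adm was followed by Zfp655, Fam184a and Commd10 (r from 0.992 to 0.995), Calcrl by Mrpl13, Eva1a and Pxn (0.991 to 0.992), Apln by Sapcd2, Fmnl1 and Taok2 (0.991 to 0.997) and Ramp2 by Homer3, Nectin3 and Mcpt8 (0.987 to 0.991). Such values were common, with 1038 genes over an r of 0.95 for Ramp1, 844 for Aplnr and 174 for Ramp2. For Ramp3, which did not differ beyond its spread, no gene reached 0.95, and the nearest was Aff3 (0.938), followed by Dbh (0.93) and Barx1 (0.922).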

How the data were processed

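Deposited values of 8 arrays, 4 of atrial and 4 of ventricular tissue, were used without further scaling. Per the labels and the methods of the study, the authors made these log2 values from Affymetrix rat genome arrays by RMA (background adjustment, quantile normalization and 1 summary per probe set), and the version is not stated. Genes were named by the annotation of the platform, in which 20826 probe sets have 1 symbol, 436 have several genes and 9780 have none, and 20758 symbols were brought up to date by gene ID. Probe sets were fitted with limma 3.58.1 in R 4.3.3, and intervals use its moderated spread (10.6 degrees of freedom). Pools of a tissue had a median SD of 0.117 (atrium) and 0.0986 (ventricle), and 4 arrays per tissue limit the precision. The fit was tested on simulated data. Plots were made in Python 3.11.15 with matplotlib 3.10.9.

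Members and lists were chosen with earlier results of these data known. Named are all members, the related ligands and receptors, up to 4 called genes per pathway or hypoxia list and direction, up to 2 per cell type list and direction, and 3 genes most like each member. List genes whose probe sets carry no single symbol here, such as Apela and Adm2, were not analysed here. Alternatives were trended and robust variances, the SAM statistic of the methods (70 splits, fudge factor 0.0503), a replicate block, median centring, cyclic loess, quantile normalization, omission of the dimmest 40% of probe sets, averaging the probe sets of a gene, the study thresholds (also under each other alternative, a choice made after seeing the data), and each array or atrial replicates 1 and 4 left out.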

Additional observations from a re-analysis of the deposited data

How the results depend on the processing

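The 6 called members kept their direction and their call under each of the 17 alternatives run, with differences from -1.16 to -0.94 for Apln, -1.64 to -1.51 for Aplnr, 0.83 to 0.96 for Adm, -0.93 to -0.73 for Calcrl, 1.57 to 1.74 for Ramp1 and -0.48 to -0.36 for Ramp2. At the study thresholds 3 genes in place of 4 were lower. Counts at those thresholds under the other settings were added after seeing the data. The 5 genes became 3 with the replicate block (4.3% of all genes) and 3 without atrial replicates 1 and 4 (5.74%). With 1 array left out they became 2 to 4 (4.78% to 6.65% of all genes). The 7 probe sets became 4 with the block (3.13% of all probe sets) and 4 to 6 with 1 array left out (3.56% to 5.13%). Ramp3 did not pass under any and turned to 0.04 with cyclic loess, 0.04 with quantile normalization and 0.01 without atrial replicates 1 and 4 (range -0.08 to 0 with 1 array left out), and its direction is not set. Of genes near the low end, Iapp turned to 0.01 with cyclic loess and 0 with quantile normalization, and Calcb ranged from -0.01 to 0.04 with 1 array left out. The cause was not tested.

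Replicate numbers are shared by the tissues, but residuals of same-numbered pools had correlations from -0.188 to 0.155, so the numbers were not taken as pairs. Atrial replicates 1 and 2 were most like the ventricular replicate of their own number (0.134 and 0.155). Atrial replicate 3 was most like ventricular replicate 4 (0.225), and atrial replicate 4 most like ventricular replicate 3 (0.278). Whether such pools share rats was not tested, and the block joined same numbers only. A replicate block changed no member call and ended those of Calca, Cpe, Crcp and Gnaq (adjusted p from 0.053 to 0.062). Pathway counts ran from 8 to 12 higher and 15 to 26 lower over the alternatives, and hypoxia counts stayed at 3 higher with 12 to 16 lower. Of 36 named list genes, Calcb, Iapp and Calcr had no call to lose, and 9 of the others lost theirs under at least 1 alternative. Ramp2 against Calcrl fell to 0.32 (exact p adjusted 0.0571) with the mean of the probe sets. With 1 array left out, with atrial replicates 1 and 4 left out or with the block, the exact test cannot go below 0.0571, 0.133 and 0.125, so only values were compared, and none of the 8 pairs changed direction.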
